A study of Danio rerio with 8 samples.

Results

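Chondrocytes, the cells that build cartilage, were sorted from whole zebrafish (Danio rerio) larvae and their RNA was sequenced, and the WT libraries alone are described here, 4 of the 8 in the series. The WT libraries were chosen by their titles, which number them as replicates 1 to 4. Their labelled genotype is Tg(sox10:EGFP); Tg(col2a1a:mcherry), a pair of reporters that is given for all 8 libraries, so that the fluorescent transgenes are carried by every group. Larvae grew at 28.5 degrees Celsius in medium with 0.003% PTU, which keeps them free of dark pigment, and cells carrying both reporters were collected 3 days after fertilisation. The sox10 promoter marks neural crest and its derivatives, which include most cartilage of the face, as well as other tissues such as the inner ear, and the col2a1a promoter marks cartilage, so the gate does not separate cartilages from each other. The number of larvae behind each library is not stated in the labels. No comparison between genotypes was made, so the values below are levels in 1 group and their spread, with no test.

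Chondrocytes secrete a matrix in which thin fibrils of type II, IX and XI collagen hold large proteoglycans whose sulfated sugar chains bind water. The transcription factor Sox9, with Sox5 and Sox6, switches on the genes of that matrix, and Indian hedgehog and parathyroid hormone related protein govern when the cells stop dividing and enlarge. In the zebrafish face the first cartilages form within days of fertilisation, and they model the jaw and gill arches before bone is laid down.

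The 4 chondrocyte markers were present at high levels in every library. FPKM corrects fragment numbers for the length of a transcript and the size of a library, so levels of different genes can be set side by side. The gene of the type II collagen chain col2a1a had 8994, 20538, 19811 and 17827 FPKM in WT replicates 1 to 4, and the matrilin gene matn1, whose product links collagen to other matrix proteins, had 7687, 21593, 20317 and 19315 FPKM. The aggrecan gene acana, for the main cartilage proteoglycan, had 2389, 1304, 1329 and 1239.9 FPKM, and sox9a had 905, 440.5, 391 and 294 FPKM. All 4 markers of the labelled cell type were present. The col2a1a promoter drives a reporter used in the sort, so col2a1a is not an independent marker. Replicate 1 had the lowest col2a1a and matn1 levels and the highest acana and sox9a levels. In bulk samples, fewer cells of a type and less RNA per cell cannot be told apart.

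Replicate 1 stood apart from the other libraries across the whole table. Summed FPKM ranged from 319471 to 326134 per library, depth is unknown because no counts were used, and 13483 to 16108 genes stood above 0. Pearson correlations of log2(FPKM + 1) across the 10252 genes whose mean reached 1 FPKM were 0.83 to 0.88 between replicate 1 and the others, against 0.92 to 0.95 among replicates 2, 3 and 4. Genes are not independent replicates, and all pairs share the same normalisation, so these are descriptions. Values are given library by library, so that replicate 1 can be read apart, and means that rest on it are also given without it. Unless said otherwise, the place of a library as highest or lowest, and its fold above or below others, refer to FPKM as deposited. Some of these change under another scaling.

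In all, 7788 of 32057 genes reached 1 FPKM in all 4 libraries. Of these genes, 2330 reached 10 FPKM in every library, 308 reached 100 and 29 reached 1000. The count at 1 FPKM or more was 10782 in replicate 1 and 9219 to 9914 in the other 3. A further 13455 genes were listed at 0 in all 4 libraries.

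A small number of genes filled much of each library. The 10 genes with the highest mean held 12.4%, 29.2%, 27.4% and 25.1% of summed FPKM in replicates 1 to 4, a mean of 23.5 ± 7.58% (SD, n = 4), or 27.2 ± 2.05% for the same genes without replicate 1 (SD, n = 3). The 192 highest genes of replicate 1 were needed to hold 50% of its summed FPKM, against 71, 77 and 97 genes in replicates 2, 3 and 4. Matrix genes, with otos counted among them, made up 9 of the 10 highest genes by mean, 18 of the highest 40 and 24 of the highest 100. Ribosomal protein genes made up 11 of the highest 40 and 41 of the highest 100. The 10th gene, zgc:158463, carries no descriptive name and had 2371, 2646, 2120.4 and 1969.9 FPKM.

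**Figure D1:**
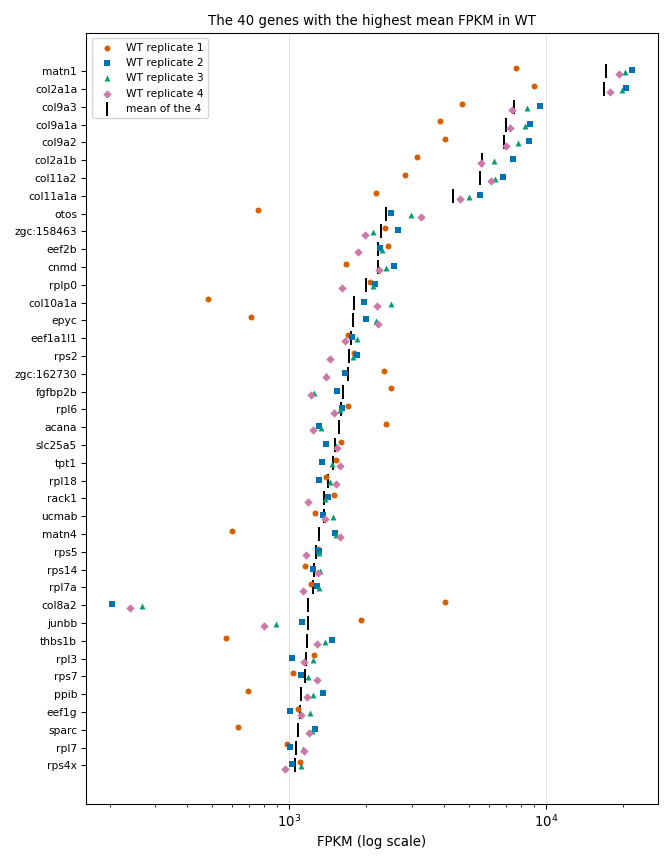
FPKM on a log scale for the 40 genes that rank highest by mean in WT, 1 row per gene in falling order, with a point for each library and a bar for the mean. The 8 highest genes are matn1 and 7 collagen genes, and replicate 1 lies below the other 3 libraries in each of them, while col8a2 reaches 4037 FPKM in replicate 1 and 205 to 268 FPKM in the others.

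The ranking was largely shared between libraries. Of each library's 100 highest genes, 92 to 95 were shared between any pair of replicates 2, 3 and 4, 78 or 79 between replicate 1 and another, and 74 were in the highest 100 of all 4. Outside the matrix and the ribosome, the highest 40 held the elongation factor genes eef2b with 2212 ± 244 FPKM and eef1a1l1 with 1737 ± 80.3 FPKM (SD, n = 4), and slc25a5, which exchanges ADP and ATP across the mitochondrial membrane, with 1512 ± 87.03 FPKM (SD, n = 4). Their values lay close together in the 4 libraries. The FGF binding protein gene fgfbp2b had 2494, 1539, 1251 and 1217 FPKM and the AP-1 transcription factor gene junbb had 1904, 1127, 888 and 799 FPKM. Both were highest in replicate 1 and varied less among the other 3.

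The 4 matrix lists together hold 165 genes, of which 89 reached 1 FPKM and 35 reached 100 FPKM in all 4 libraries. They took 18.8%, 34.8%, 33.5% and 31.1% of summed FPKM in replicates 1 to 4, a mean of 29.6 ± 7.36% (SD, n = 4), or 33.2 ± 1.87% without replicate 1 (SD, n = 3). Ribosomal protein genes, for comparison, took 13.6%, 14.1%, 14.8% and 14.4%. Replicate 1 was far below the other 3 libraries in the matrix share, and it was lowest but close to them in the ribosomal share.

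**Figure D2:**
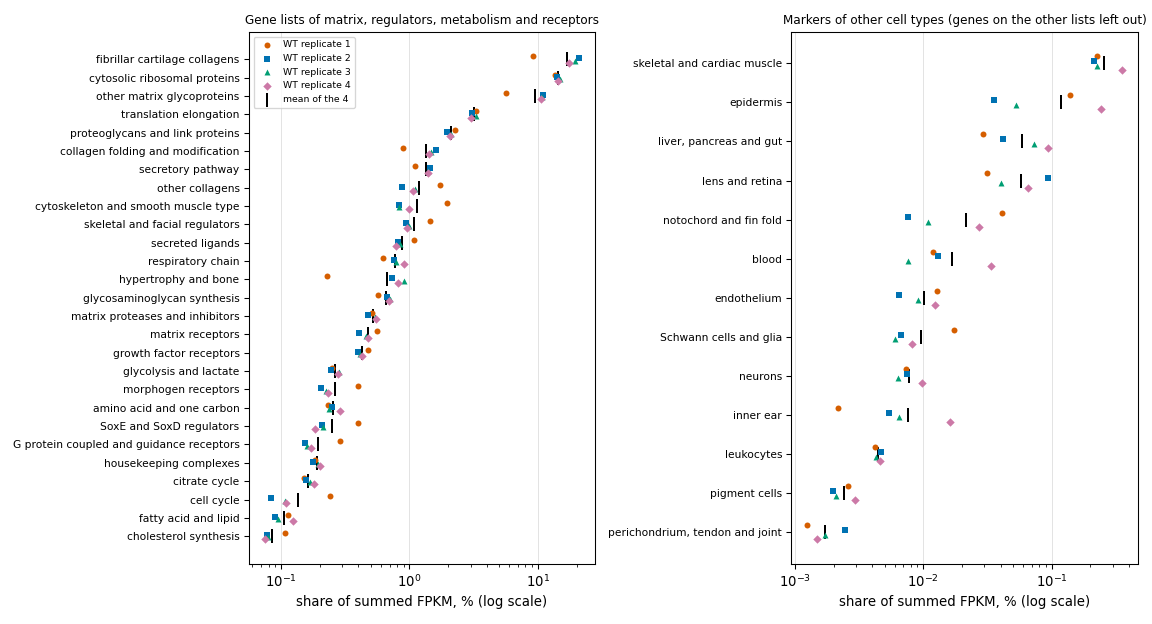
Share of summed FPKM, in percent on a log scale, held by each gene list in each WT library, with a bar for the mean. Lists of matrix, regulator, metabolism, receptor and general cell genes are on the left. Markers of other cell types, without genes that a left-hand list also holds, are on the right. The list of fibrillar cartilage collagens, which includes the type IX chains, took 9.17% in replicate 1 and 17.5 to 21.0% in the others. The highest list of other cell types, muscle, took 0.214 to 0.354%.

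Of 12 symbols on the list of fibrillar cartilage collagens, which also holds the type IX chains, 10 were found. All 10 genes reached 1 FPKM in every library, and 7 of them reached 1000 FPKM. The type IX chains, which decorate the surface of type II fibrils, followed col2a1a: col9a3 had 4708, 9459, 8451 and 7367 FPKM, col9a1a had 3858, 8696, 8276 and 7252 FPKM and col9a2 had 4033, 8566, 7809 and 6992 FPKM. The second type II gene, col2a1b, had 3153, 7483, 6283 and 5595 FPKM. The type XI chains, which set fibril width, had 2835, 6829.7, 6313 and 6129 FPKM for col11a2 and 2179, 5537, 5027 and 4629.9 FPKM for col11a1a. In each of these genes replicate 1 was lowest and replicate 2 highest, and the range of the other 3 libraries did not reach down to replicate 1. The remaining chains were lower by a wide margin: col11a1b had 128, 216, 255 and 258 FPKM, col9a1b had 3.27, 52.7, 48.6 and 44.7 FPKM and col27a1b had 4.27, 9.47, 13.8 and 11.6 FPKM.

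Several abundant matrix genes kept a ratio to each other that varied much less between libraries than their levels. The ratio of col9a1a to col2a1a was 0.429, 0.423, 0.418 and 0.407 in replicates 1 to 4, a mean of 0.419 ± 0.00946 (SD, n = 4) and a coefficient of variation of 2.26%, against 31.7% for the col2a1a level itself. The ratio of col11a1a to col11a2 was 0.769, 0.811, 0.796 and 0.755 (coefficient of variation 3.23%), and that of col11a2 to col2a1a was 0.315, 0.333, 0.319 and 0.344 (4.03%). The ratio of col9a2 to col9a1a was 1.05, 0.985, 0.944 and 0.964 (4.47%), and that of matn4 to matn1 was 0.0778, 0.0702, 0.0751 and 0.0819 (6.43%). Replicate 1 lay within the range of the other libraries for col11a1a to col11a2 and for matn4 to matn1. It lay outside for the rest, with the widest gap for col9a2 to col9a1a. The ratio of col9a3 to col9a1a was 1.22, 1.09, 1.02 and 1.02 (8.76%), and that of matn1 to col2a1a was 0.855, 1.05, 1.03 and 1.08 (10.2%). Replicate 1 was outside the others in both. Other pairs varied more: the ratio of col9a1b to col9a1a was 0.000848, 0.00606, 0.00587 and 0.00616 in replicates 1 to 4 (coefficient of variation 54.8%), and that of col11a1b to col11a1a was 0.0586, 0.0391, 0.0507 and 0.0556 (16.8%). Likewise, acana stood at 0.266 of col2a1a in replicate 1 and at 0.0635, 0.0671 and 0.0696 in replicates 2, 3 and 4. Gene pairs were chosen after their values were seen, and a ratio within a library shows relative levels only.

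**Figure D3:**
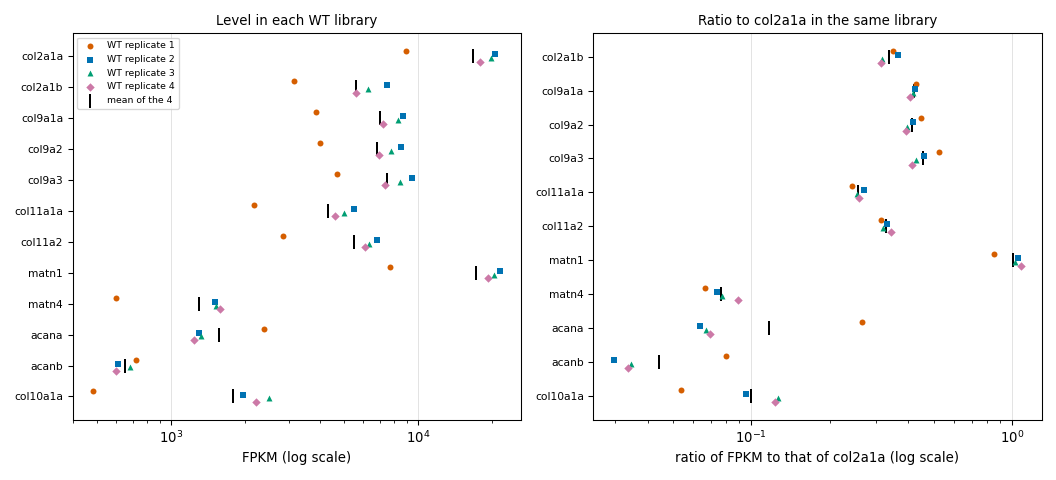
Left, FPKM on a log scale for 12 cartilage matrix genes in each WT library; right, the ratio of each gene to col2a1a in the same library, also on a log scale, with bars for the means. On the left, the 7 collagen II, IX and XI chains lie for replicate 1 apart from the other libraries. On the right, where col2a1a is the divisor and is not drawn, the remaining chains lie nearer to them. There replicate 1 is still above the other libraries for col9a3, col9a2 and, narrowly, col9a1a. It is below them for col11a2 and col11a1a and within their range for col2a1b. For acana, replicate 1 keeps a gap from the others on both sides.

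Among the other collagens, 16 of 37 genes reached 1 FPKM in all 4 libraries. The highest was col10a1a, the type X collagen gene that marks enlarging chondrocytes in mammals and is also used by early bone cells in zebrafish, with 484, 1966, 2499.7 and 2205 FPKM. Replicate 1 was at a fraction of the other libraries, whose mean was 2223 ± 267 FPKM (SD, n = 3). The network-forming collagen gene col8a2 had 4037, 205, 268 and 241 FPKM, and it ranked among the highest genes of replicate 1 and not of the others: without that library its mean was 238 ± 31.6 FPKM (SD, n = 3). The basement membrane collagen gene col15a1b had 174, 210.2, 191 and 179 FPKM, with all libraries close together. Type I collagen, the main collagen of bone, tendon and perichondrium, was far below type II. The gene col1a1b had 169, 134, 228 and 323 FPKM, col1a2 had 139, 59.5, 58.7 and 81.1 FPKM and col1a1a had 91.5, 43.7, 35.1 and 56.6 FPKM. The lowest of them in every library, col1a1a, stood at 0.0102 of col2a1a in replicate 1 and at 0.00177 to 0.00318 in the others. The ratios of col1a1b and col1a2 to col2a1a were higher.

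Of the proteoglycan and link protein genes, 23 of 44 reached 1 FPKM in all 4 libraries, and 10 reached 100. The small leucine-rich proteoglycan gene epyc (epiphycan) led by mean, with 709.7, 1995, 2185 and 2209.7 FPKM. The second aggrecan gene acanb had 720.04, 609, 682 and 598 FPKM, and snorc, for a small membrane proteoglycan of cartilage, had 491, 644, 620.01 and 585 FPKM. Both varied less between the 4 libraries than acana and epyc, in which replicate 1 was outside the range of the rest in opposite directions. The cell-surface proteoglycan gene sdc4 (syndecan 4) had 741, 542, 531 and 511 FPKM and hapln1b, a link protein gene that ties aggrecan to hyaluronan, had 462, 313, 313 and 340.1 FPKM. Other members over 100 FPKM in every library were sdc2 with 285 ± 29.6, gpc4 with 153 ± 16.2 and chad with 142 ± 18.7 FPKM (SD, n = 4), and cspg4, which had 409, 153, 141 and 153 FPKM and was highest in replicate 1. The glypican gpc4 is required for the stacking of cartilage cells in zebrafish, and chad encodes chondroadherin, a cell-binding cartilage protein.

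Among the other matrix glycoproteins, 40 of 75 genes reached 1 FPKM in all 4 libraries and 13 reached 100. By mean, the highest after matn1 was otos, the gene of otospiralin, known from the mammalian inner ear, with 755, 2501, 2988 and 3258 FPKM. Next by mean came cnmd (chondromodulin, which keeps vessels out of cartilage in mammals) with 1662, 2562, 2383 and 2237 FPKM, above otos in replicates 1 and 2. The Gla-rich cartilage protein gene ucmab held a near constant level of 1267, 1357, 1477 and 1377 FPKM, and matn4, a second matrilin, had 598, 1516, 1526 and 1582 FPKM. Replicate 1 was lowest in all 4 genes. Further members were thbs1b with 567, 1470.3, 1375 and 1288, sparc with 632, 1265, 1227 and 1198 and mia with 444, 782, 886 and 973 FPKM, a thrombospondin, a collagen-binding protein and a small protein secreted by cartilage. In these as in tgfbi, with 159.7, 346, 383 and 384 FPKM, replicate 1 lay below the other libraries. The lysyl oxidase gene loxl3b, which cross-links collagen, had 185, 278, 279 and 279 FPKM.

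Of the SoxE and SoxD genes, 5 of 8 reached 1 FPKM in all 4 libraries, and sox9a, the master regulator of cartilage, was highest in each. Its value of 905 FPKM in replicate 1 was at least 2-fold above those of replicates 2 to 4, which averaged 375 ± 74.7 FPKM (SD, n = 3). That gap is for FPKM as deposited. With each library scaled by the median of its gene ratios, the gaps to replicates 2 and 3 were under 2-fold, and that to replicate 4 stayed over 2-fold. The partner genes sox6 and sox5 had 104, 90.5, 111 and 114 FPKM for sox6 and 136, 57.3, 89.7 and 85.8 FPKM for sox5, and sox10, whose promoter drives the EGFP reporter of the sort, had 144, 69.96, 71.6 and 84.1 FPKM. The order of sox6, sox5 and sox10 changed between libraries, so the 3 could not be ranked beyond their spread. The duplicate sox9b was low, with 7.29, 0.813, 0.806 and 2.43 FPKM, and sox9a exceeded it 121-fold to 542-fold. The gene sox8a had 4.45, 5.87, 6.51 and 4.67 FPKM, sox13 had 1.12, 0.440, 0.812 and 0.916 and sox8b had 0, 0.515, 0 and 0.279 FPKM. These 3 lay far under sox5 and sox6 in every library.

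Among 140 skeletal and facial regulators, 92 reached 1 FPKM in all 4 libraries, 30 reached 10 and 9 reached 100. The highest were factors of protein stress and secretion: atf4a had 631, 519, 453 and 423 FPKM and xbp1, which expands the secretory apparatus, had 458, 397, 382 and 373 FPKM. The genes id1 and id3, inhibitors of helix-loop-helix factors that respond to BMP signals, had 299.9, 173, 335 and 322 FPKM for id1 and 194, 125, 149.6 and 166 FPKM for id3. The forkhead genes foxa3, foxc1b and foxc1a had 207, 156, 178 and 152 FPKM for foxa3, 253, 126, 118 and 101 FPKM for foxc1b and 254, 91.2, 88.3 and 73.6 FPKM for foxc1a. In mice, FoxA factors act in chondrocyte enlargement and Foxc1 in skeletal development. The foxa3 levels lay close together, while both foxc1 genes were highest in replicate 1. Of the factors that mark arch or joint identity, nkx3.2, which is needed for the jaw joint, had 42.6, 75.5, 60.7 and 51.05 FPKM. Among genes named after their values were seen, hand2, a ventral arch factor, had 89.2, 3.84, 3.87 and 5.66 FPKM and trps1, a repressor active in cartilage, had 69.02, 17.9, 23.7 and 21.9 FPKM. In both, replicate 1 was well above the rest, and the other 3 libraries lay close together. The secretory regulator creb3l2, also named after its values were seen, had 43.7, 40.2, 49.2 and 40.4 FPKM, with no library apart.

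**Figure D4:**
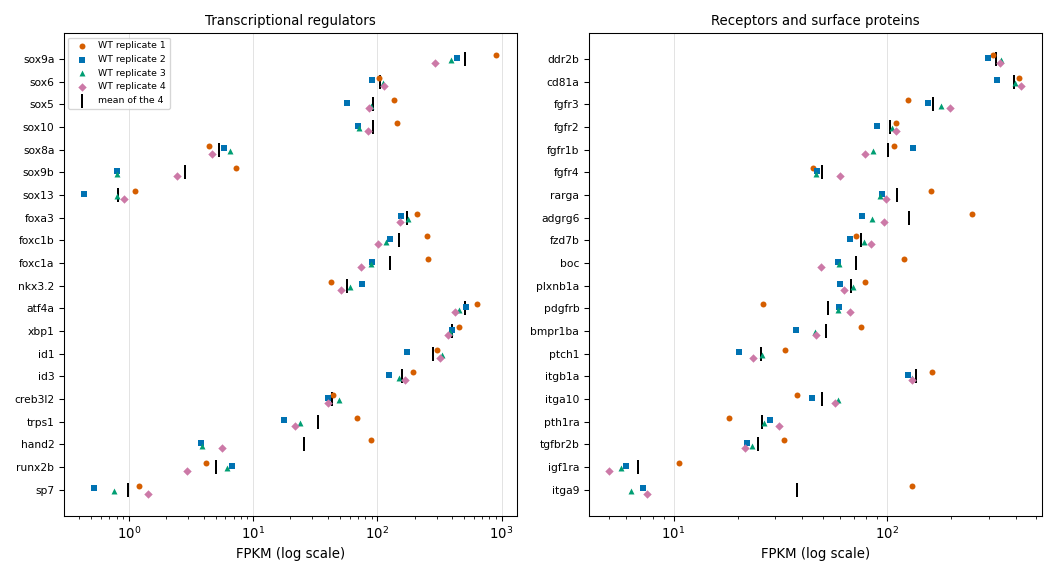
FPKM on a log scale in each WT library for 20 transcriptional regulators (left) and 20 receptors and surface proteins (right), with a bar for the mean. Of the regulators shown, sox9a, atf4a and xbp1 have the 3 highest means, with id1 above sox9a in replicate 4, and hand2 and itga9 show the widest gap between replicate 1 and the rest. Genes outside the naming rule (hand2, trps1, creb3l2, tgfbr2b, igf1ra and itga9) were chosen after their values were seen.

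The list for hypertrophy and bone had 12 of 30 genes at 1 FPKM or more in all 4 libraries. After col10a1a came the membrane protease gene mmp14a with 88.5, 141, 158 and 168 FPKM and ihha, the Indian hedgehog ligand of prehypertrophic cartilage, with 10.8, 92.7, 127 and 80.3 FPKM. Replicate 1 was lowest in both, and in ihha it was several-fold below each other library. The signal that holds chondrocytes back from enlargement, pthlha, was highest in replicate 1, with 16.5, 4.38, 8.11 and 2.22 FPKM, and its receptor gene pth1ra had 18.3, 28.4, 26.4 and 31.03 FPKM. The pyrophosphate-producing gene enpp1 had 58.6, 44.5, 52.5 and 55.8 FPKM and mmp14b had 18.7, 18.7, 22.3 and 31.3 FPKM. Of the regulators of bone, runx2b had 4.15, 6.80, 6.23 and 2.94 FPKM and sp7 had 1.21, 0.528, 0.766 and 1.43 FPKM, which put both far under sox9a. Other members that reached 1 FPKM in every library were ihhb with 1.43, 7.43, 3.25 and 5.46, spp1 with 5.40, 2.53, 4.54 and 3.46, entpd5a with 1.68, 5.20, 2.73 and 4.31 and vegfaa with 1.66, 5.13, 1.23 and 3.90 FPKM. The matrix protease gene of late cartilage, mmp13a, stood at 0, 0.795, 0.148 and 1.46 FPKM for the higher of 2 gene IDs, and panx3 at 0.113, 0.165, 0 and 0.317. The osteoblast gene bglap, as well as pth1rb and ankha, was listed at 0 in all 4 libraries. Of the remaining members, col10a1b had 0.316, 6.70, 3.47 and 8.37, ifitm5 10.2, 1.31, 0 and 3.29, scpp1 7.92, 2.66, 1.59 and 0.474, mmp9 0.398, 0.405, 1.12 and 2.35 and alpl 0, 0.637, 0 and 3.34 FPKM. The others, sost, pthlhb, phospho1, vegfab, phex and mmp13b, stayed below 1 FPKM in at least 2 libraries.

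Of the growth factor receptor genes, 42 of 72 reached 1 FPKM in all 4 libraries. The collagen-binding receptor tyrosine kinase gene ddr2b led them with 314, 295, 342 and 336 FPKM, all close together, and its duplicate ddr2a had 31.5, 21.8, 33.8 and 38.7 FPKM. The gene fgfr3, which restrains chondrocyte division in mammals, had 125, 156, 179 and 197 FPKM, fgfr2 had 109.6, 89.6, 106 and 109.7 FPKM and fgfr1b had 107, 133, 85.7 and 79.2 FPKM, with fgfr4 at 45.1, 46.8, 46.3 and 60.2 FPKM. The value of fgfr3 was above that of fgfr2 and fgfr1b above fgfr4 in 4 of 4 libraries, while fgfr2 exceeded fgfr1b in 3 of 4. The decoy-like receptor gene fgfrl1b had 56.5, 53.3, 51.05 and 59.3 FPKM. The PDGF receptor gene pdgfrb had 26.4, 59.4, 59 and 66.8 FPKM, lowest in replicate 1, and the BMP receptor gene bmpr1ba had 75.8, 37.6, 45.7 and 46.7 FPKM, highest there. The natriuretic peptide receptor gene npr2 lay just outside the naming rule and was chosen after its values were seen, with 18.3, 27.8, 27.9 and 24.5 FPKM. Among genes also named after their values were seen, the TGF-beta receptor gene tgfbr2b had 32.7, 22.03, 23.4 and 21.6 FPKM and the IGF receptor gene igf1ra had 10.6, 5.96, 5.70 and 5.004 FPKM.

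Receptors for morphogens reached 1 FPKM in all 4 libraries in 36 of 57 genes. The retinoic acid receptor gene rarga was highest with 161, 94.3, 92.5 and 98.8 FPKM, above rargb with 95.6, 20.9, 26.5 and 28.1 FPKM in 4 of 4 libraries. The Wnt receptor genes fzd7b and fzd7a had 71.5, 67.1, 77.7 and 83.9 FPKM for fzd7b and 25.5, 27.5, 36.01 and 35.8 FPKM for fzd7a, with fzd7b higher in 4 of 4 libraries. The hedgehog receptor gene ptch1, also a target of the pathway, had 33.3, 20.2, 25.9 and 23.5 FPKM as the higher of 2 gene IDs. It was highest in replicate 1 as deposited, but not with each library scaled by the median of its gene ratios. The second ptch1 ID stood at 21.1, 0.425, 0 and 0.669 FPKM. The hedgehog co-receptor gene boc had 119, 59.07, 59.6 and 49.2 FPKM, ptk7a, of planar cell polarity, had 95.6, 53.4, 44.02 and 41.4 FPKM, and notch2 had 40.1, 29.1, 30.4 and 36.1 FPKM.

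Of the G protein coupled and guidance receptors, 41 of 81 reached 1 FPKM in all 4 libraries. The adhesion receptor gene adgrg6, which is needed for Schwann cell myelination and for ear canal formation in zebrafish, was highest with 249, 76.6, 85.1 and 97.1 FPKM, and replicate 1 was more than 2-fold above each of the others. The semaphorin receptor gene plxnb1a had 78.5, 60.4, 69.2 and 62.9 FPKM, with no library apart. Others were adgra2 with 39.1, 31.8, 40.6 and 27.9, lpar1 with 72.03, 20.7, 25.9 and 23.8 and nrp2b with 15.95, 18.5, 18.4 and 17.7 FPKM.

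Receptors for the matrix reached 1 FPKM in all 4 libraries in 21 of 46 genes. The tetraspanin gene cd81a had 415, 328, 399 and 423 FPKM and the integrin subunit gene itgb1a had 162, 126, 130.3 and 131 FPKM. Its collagen-binding partner itga10, an integrin of cartilage in mammals, had 37.9, 44.4, 58.98 and 56.9 FPKM, lowest in replicate 1. The fibronectin-binding subunit gene itga5 lay outside the naming rule and was chosen after its values were seen, with 67.7, 19.7, 13.4 and 10.9 FPKM. It was higher than itga10 in replicate 1 and lower in the other 3 libraries. The subunit gene itga9, also chosen in that way, had 131, 7.22, 6.31 and 7.55 FPKM.

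Of the secreted ligand genes, 68 of 166 reached 1 FPKM in all 4 libraries. A further 69 stayed below 1 in all 4, and 29 of these were listed at 0 throughout. Over all genes, 7788 of 32057 reached 1 FPKM in all 4 libraries and 13455 were listed at 0 in all 4. The highest was wisp3, of the CCN family of matricellular proteins, with 667, 719, 734 and 677 FPKM, a narrow range. The Wnt antagonist gene frzb had 95.7, 180.3, 179.7 and 179 FPKM and the CCN gene ctgfa had 138, 229, 192 and 156 FPKM. The genes tgfb2 and tgfb3 had 133, 102, 132 and 117 FPKM for tgfb2 and 115, 91.3, 79.4 and 70.8 FPKM for tgfb3, igfbp3 had 189, 127, 115 and 131 FPKM and angptl1a had 51.2, 91.1, 107 and 118 FPKM. The CCN gene cyr61 had 223, 68.95, 71.9 and 61.7 FPKM and was highest in replicate 1.

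The enzymes that build sulfated sugar chains were broadly present, with 52 of 66 genes at 1 FPKM or more in all 4 libraries. The gene csgalnact1a, which starts chondroitin chains, had 222, 395, 398 and 368 FPKM, and papss2b, which makes the sulfate donor, had 347, 328, 394 and 458 FPKM. The gene xylt1, whose enzyme attaches the first sugar to the core protein, had 179, 207, 207 and 172 FPKM. Both csgalnact1a and its duplicate csgalnact1b, with 30.4, 49.6, 54.1 and 56.1 FPKM, were lowest in replicate 1, and their ratio stayed between 6.55 and 7.97. The aminosugar gene gfpt1 had 99.1, 157, 159.5 and 131 FPKM, the nucleotide sugar transporter gene slc35d1a 75.9, 77.9, 96.3 and 98.96, the sulfotransferase gene chst11 22.1, 64.2, 55.8 and 49.8 and ugdh, which makes glucuronate, 26.9, 47.99, 47.4 and 57.1 FPKM.

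Of 34 symbols on the list of collagen processing genes, 28 were found. Of these 28 genes, 26 stood at 1 FPKM or more in all 4 libraries and 24 at 10 or more. The prolyl isomerase gene ppib had 690.5, 1358, 1238 and 1179 FPKM and the procollagen proteinase enhancer gene pcolceb had 515, 715, 633 and 589.8 FPKM. The hydroxylase subunit gene p4hb had 140.01, 323, 295 and 326, crtap, of a complex that modifies collagen prolines, 140.3, 271, 241 and 236, the lysyl hydroxylase genes plod3 and plod1a 87.5, 232, 197 and 173 FPKM for plod3 and 65.5, 155, 161 and 151 FPKM for plod1a, and the procollagen proteinase gene bmp1a 99.9, 147, 141 and 125 FPKM. Replicate 1 was lowest in every one of these 7 genes. The collagen chaperone gene serpinh1b had 155, 363, 169.8 and 164 FPKM, with replicate 2 far above the other 3. In the secretory pathway 70 of 76 genes reached 1 FPKM in all 4 libraries, led after xbp1 by the translocon genes ssr2 and ssr4 with 189.7, 395, 342 and 351 FPKM for ssr2 and 135, 312, 271 and 273 FPKM for ssr4 and by the chaperone gene hspa5 with 300.3, 289.8, 270.3 and 246 FPKM. The coat gene sec24d, which zebrafish need for cartilage secretion, had 122, 167, 147 and 141 FPKM.

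Energy metabolism was represented on all its main routes, at levels far under the matrix. Of glycolysis and lactate genes 23 of 45 reached 1 FPKM in all 4 libraries, and their list took 0.251, 0.244, 0.282 and 0.279% of summed FPKM. The highest by mean was pdk2b, a kinase that turns off pyruvate dehydrogenase, with 141, 148, 231 and 218 FPKM, followed by the lactate dehydrogenase gene ldhba with 77.3, 113, 115 and 111 FPKM, gapdhs with 93.6, 117, 111 and 86.8 FPKM and aldoaa with 65.7, 77.9, 80.5 and 78.9 FPKM. The gene ldhba exceeded ldha, with 32.3, 47.5, 48.5 and 49.7 FPKM, by 2.22-fold to 2.39-fold in each library. The sugar transporter genes slc2a10 and slc2a1b had 25.1, 33.3, 42.2 and 34.6 FPKM for slc2a10 and 50.8, 21.6, 23.3 and 24.1 FPKM for slc2a1b, in opposite order in replicate 1 and the rest. Citrate cycle genes reached 1 FPKM in all 4 libraries in 26 of 32 cases, with idh2 highest at 113, 143, 161 and 155 FPKM.

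Nuclear genes of the respiratory chain reached 1 FPKM in all 4 libraries in 76 of 95 cases, and the list took 0.624, 0.765, 0.786 and 0.906% of summed FPKM. The ATP synthase genes atp5f1b and atp5fa1 had 173, 219, 224 and 218 FPKM for atp5f1b and 197, 231, 225 and 199 FPKM for atp5fa1. Mitochondrial DNA encodes 13 proteins, and each of these genes was listed at 0 in every library, so their levels cannot be read from the table. An exact 0 is therefore taken only as a listed value. The subunit gene uqcrb had 32.7, 35.6, 0 and 44.1 FPKM and cox7c had 0, 16.7, 29.4 and 39.6 FPKM, the only genes whose median reached 10 FPKM that were listed at 0 in a library.

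Amino acid and one carbon metabolism took 0.233, 0.251, 0.237 and 0.287% of summed FPKM, above the citrate cycle with 0.151, 0.155, 0.167 and 0.179% in 4 of 4 libraries. Of its genes 28 of 39 reached 1 FPKM in all 4 libraries, with the transporter subunit gene slc3a2b at 78.1, 149, 158 and 183 FPKM and phgdh, which starts serine synthesis, at 23.8, 50.3, 55.1 and 46.4 FPKM. Cholesterol synthesis had 17 of 26 such genes, led by the uptake receptor ldlra with 95.2, 89.4, 113 and 102 FPKM, and lipid metabolism 20 of 31, led by the elongase gene elovl1b with 171, 90.7, 72.4 and 78.02 FPKM. In phgdh and slc3a2b replicate 1 was lowest, and in elovl1b it was highest.

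Matrix turnover genes reached 1 FPKM in all 4 libraries in 25 of 52 cases. The gelatinase gene mmp2 was highest with 802, 656, 873 and 878 FPKM, and its activator mmp14a stood lower in 4 of 4 libraries. The cathepsin gene ctsla had 285, 335, 294 and 316 FPKM, the procollagen-cleaving adamts3 had 120.05, 73.5, 76.4 and 76.2 FPKM and the inhibitor gene timp2b had 45.1, 78.3, 63.5 and 62.5 FPKM. Of the cell cycle genes 23 of 41 reached 1 FPKM in all 4 libraries. The inhibitor gene cdkn1bb had 114, 70.8, 64.2 and 55.4 FPKM, while pcna, of DNA replication, had 93.2, 20.05, 32.97 and 33.1 FPKM and hmgb2a had 143, 22.9, 55.7 and 54.3 FPKM, each highest in replicate 1.

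The spread between the 4 libraries was described over the 2949 genes whose median reached 10 FPKM. The median SD of log2(FPKM + 1) was 0.348, with quartiles of 0.220 and 0.507, and it was 0.191 for the same genes without replicate 1. As a coefficient of variation the medians were 25.02% and 13.7%. The SD was under 0.1 for 126 genes and over 1 for 94. Replicate 1 was the highest library for 1552 of these genes (52.6%) and the lowest for 811 (27.5%). It was at least 2-fold above all 3 others for 263 genes and at least 2-fold below all 3 for 119, while each other library was so for 1 to 8 and 11 to 18 genes.

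The typical gene was 0.26 higher in replicate 1 than in the mean of the others on the log2(FPKM + 1) scale, and 0.19 lower once each library was scaled by the median of its gene ratios, so list values are read against those medians. Fibrillar cartilage collagens had a median of -1.08 as deposited, with 0 of 10 above, and -1.55 after scaling. Collagen folding genes had -0.81 and -1.27, with 4 of 25 above as deposited and 3 after scaling. The other collagens had 0.97 and 0.51, with 8 of 12 above as deposited and 7 after scaling. The SoxE and SoxD genes had 0.88 and 0.42, with 3 of 4 above under both. The cell cycle genes had 0.67 and 0.22, with 6 of 7 above as deposited and 5 after scaling. The medians of these 5 lists kept their side under both scalings, but only the fibrillar cartilage collagens had every gene on that side. The growth factor receptors, with 0.29 and -0.15, and matrix receptors, with 0.28 and -0.18, changed sign and lay near the typical gene in both. Ribosomal proteins were the least variable list as deposited, with a median SD of 0.116. Their median was -0.10 as deposited and -0.56 after scaling, with 0 of 81 above in replicate 1, so they lay below the typical gene under both scalings.

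**Figure D5:**
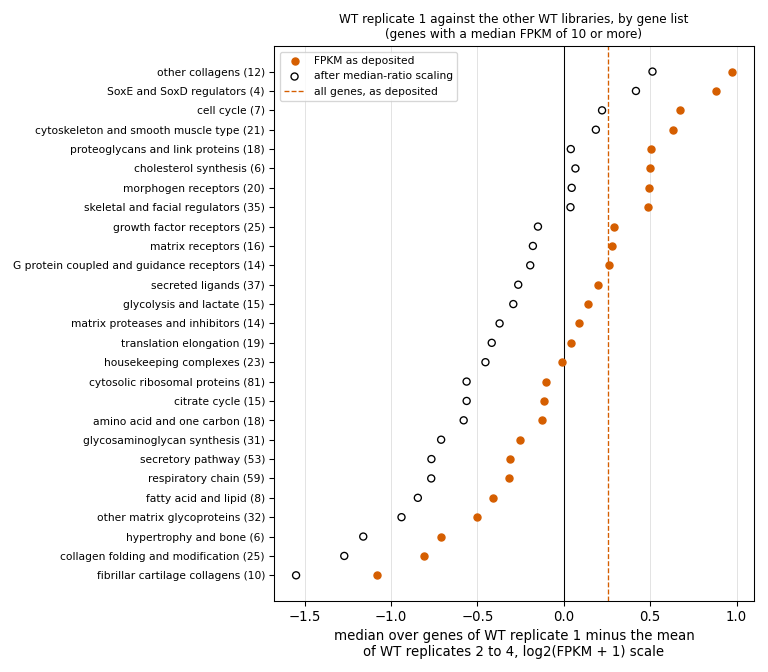
Median over the genes of each list of matrix, regulator, metabolism, receptor and general cell genes (markers of other cell types are not shown) of the difference between WT replicate 1 and the mean of replicates 2 to 4 on the log2(FPKM + 1) scale, as deposited (filled) and after median-ratio scaling (open), with the number of genes in brackets. Of the lists shown, fibrillar cartilage collagens lie lowest at -1.08 as deposited and other collagens highest at 0.97, against 0.26 for all 2949 genes (dashed line).

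Of the 10 genes with the smallest SD of log2(FPKM + 1), the cargo receptor gene tmed2 had 92.9, 91.8, 90.9 and 91.5 FPKM, the phosphatase subunit gene ppp2r1bb had 32.9, 31.9, 31.8 and 32.2 FPKM and the splicing gene snrpb had 42.2, 39.7, 40.3 and 40.8 FPKM. Among them was also chpfa, which lengthens chondroitin chains, with 34.04, 34.7, 34.6 and 33.1 FPKM. The others were ap3d1, rps15, eif5, slc6a16a, creb3l3l and sf3b2. At the other end, several matrix and adhesion genes were high in replicate 1 alone. Fibronectin gene fn1b had 1378, 162, 164 and 189 FPKM, the cross-linking enzyme gene f13a1b had 903, 68.9, 105 and 77.6 FPKM and the lysyl oxidase gene loxl4 had 581, 70.03, 68.6 and 70.7 FPKM. In all 3, replicates 2, 3 and 4 were several-fold lower. Replicate 1 was also highest for the elastic-fibre gene emilin3a with 422, 46.9, 52.5 and 58.8, the guidance ligand gene sema3d with 199.9, 15.9, 20.3 and 18.5, the lamin gene lmna with 121, 16.3, 9.42 and 11.4 and the pluripotency-associated factor gene sall4 with 96.5, 11.9, 9.01 and 7.11 FPKM. Few genes were set apart in another library. The keratin gene krtt1c19e had 6.58, 9.42, 17.7 and 178 FPKM, highest in replicate 4. The ribosomal gene rpl29 had 18.9, 194, 25.7 and 275 FPKM, high in replicates 2 and 4, and the transcription factor genes sox4a and pou3f3b had 47.7, 29.4, 24.9 and 2.11 FPKM for sox4a and 14.2, 11.4, 15.5 and 0.278 FPKM for pou3f3b, lowest in replicate 4. For arf2b, a gene of vesicle traffic, 1 of 2 gene IDs had 10.6, 13.4, 14.6 and 0.0996 FPKM, while the other was listed at 0 in replicates 1 to 3 and had 51.8 FPKM in replicate 4.

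Among markers of other cell types, those of muscle and epidermis had the highest mean sums. Sums are over list genes that no list of chondrocyte or general cell genes holds, unless said otherwise. Muscle genes summed to 739.7, 688, 725 and 1133 FPKM in replicates 1 to 4, led by the parvalbumin gene pvalb1 with 216, 215, 206 and 327 FPKM, with 18 of 30 at 1 FPKM or more in all 4 libraries and the muscle actin gene actc1b, which the cytoskeleton list also holds, at 276, 227, 241 and 325 FPKM. Both pvalb1 and actc1b exceeded sox5, sox6 and sox10 in 4 of 4 libraries, and sox9a in replicate 4. Epidermal genes summed to 455, 115, 168 and 777 FPKM, highest in replicates 4 and 1, with krt4 at 54.6, 12.7, 18.4 and 88.9 and anxa1a at 228, 33.1, 41.8 and 40.9 FPKM, and 12 of 26 at 1 FPKM or more in all 4 libraries.

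Neuronal genes summed to 24.1, 24.1, 20.4 and 31.4 FPKM, most of it tubb5 with 14.2, 18.8, 17.9 and 24.3, and elavl3 stood at 1.12, 0.387, 0.374 and 0.970 FPKM. Pigment cell genes summed to 8.42, 6.37, 6.61 and 9.42 FPKM, with 9 of 18, tyr, dct and mitfa among them, listed at 0 in all 4 libraries. Leukocyte genes summed to 13.7, 14.9, 13.7 and 14.6 FPKM, and 12 of 21, ptprc, lcp1, mpx and lyz among them, were listed at 0 throughout. Over all genes, 13455 of 32057 were listed at 0 in all 4 libraries, so a listed 0 is common. Endothelial genes summed to 41.6, 20.9, 29.1 and 39.2 FPKM, most of it fli1a with 39.2, 18.9, 27.3 and 29.9 FPKM. Of the 23 genes on the full endothelial list, only flt1 and vwf were listed at 0 in all 4 libraries. There 1 gene reached 1 FPKM in all 4, and 19 stayed below 1 in all 4. Globin and other blood genes summed to 38.5, 42.1, 24.1 and 109 FPKM, highest in replicate 4, where hbae3 reached 25.6 FPKM. Of the 22 blood genes 8 reached 1 FPKM in all 4 libraries, and 10, gata1a and slc4a1a among them, were at 0 throughout. Schwann cell and glial genes summed to 56.2, 21.5, 19.1 and 26.3 FPKM, and none was at 0 in all 4 libraries. Defining markers listed at 0 were named after their values were seen.

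Genes of the inner ear that no chondrocyte list holds summed to 7.004, 17.4, 20.5 and 51.7 FPKM, led by stm with 4.01, 12.6, 13.1 and 30.7 FPKM, with pou4f3 and myo7aa at 0. Of these 19 genes 2 reached 1 FPKM in all 4 libraries and 6 were at 0 throughout. The gene otos, with 755, 2501, 2988 and 3258 FPKM, was counted with the matrix genes and was not on the inner ear list. Liver, pancreas and gut genes summed to 95.6, 134, 232 and 301 FPKM, with the trypsin gene prss1 at 19.98, 25.8, 45.1 and 65.5 FPKM, and lens and retina genes to 103, 302, 129 and 210.1 FPKM, with crybb1 at 25.7, 88.5, 30.2 and 52.8 FPKM. Of the liver, pancreas and gut genes 10 of 36 reached 1 FPKM in all 4 libraries, and 5, ins among them, were at 0 throughout. Of the lens and retina genes 11 of 31 reached 1 FPKM in all 4 libraries and 5 were at 0 throughout. Notochord and fin fold genes summed to 133, 24.2, 34.97 and 86.6 FPKM, with noto at 0. Of these 9 genes 3 reached 1 FPKM in all 4 libraries and 2 were at 0 throughout. The highest by mean was cav1 with 116, 13.6, 22.8 and 19.3 FPKM, so most of the sum in replicate 4 came from other genes. Of the perichondrium, tendon and joint genes 18 of 25 reached 1 FPKM in all 4 libraries, but only 3 of 25 were on no other list, with a sum of 4.05, 7.82, 5.47 and 4.70 FPKM. With shared genes kept, the perichondrium, tendon and joint list summed to 816, 502, 596 and 762 FPKM, with col1a1b highest by mean. The notochord and fin fold list then summed to 3434, 2601, 2716 and 2748 FPKM, mostly epyc, krt8 and krt18a.1. The inner ear list then summed to 4502, 9982, 9528 and 8507 FPKM, mostly col9a1a and sparc, and the Schwann cell and glia list to 210.3, 100.4, 104 and 135 FPKM, mostly sox10. Without shared genes, replicates 1 and 4 had the highest sums for epidermis and for notochord with fin fold, and replicate 4 for muscle, blood, inner ear, gut, neurons and pigment cells. Replicate 1 was highest for Schwann cells with glia and for endothelium. Replicate 2 was highest for lens with retina, for leukocytes and for perichondrium, tendon and joint. The part of such cells in the levels above was not tested.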

How the data were processed

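RNA of sorted chondrocytes from 4 WT libraries was described, and the 4 kat6a libraries were not used. The authors deposited 1 table of FPKM values per gene, per the file headers, for 32057 genes. The submitters' processing notes name HISAT2, StringTie and the build GRCz10, with no version or setting. Libraries were made with a directional kit, per the labels' protocols, and whether counting used the strand is not stated in the labels. WT replicate 4 was numbered by its title, since its library name carries a 3. Value columns not tied to a sample numbered 0. The series text calls the libraries biological replicates, and the labels do not say whether they came from separate clutches.

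FPKM hold no counts and their low values showed no common step, so depth is unknown and no counting interval was computed. Exact 0 values were read as listed values only, and genes with one are given library by library. Gene symbols are those the table pairs with its IDs, and 1806 of 1913 list symbols were found. Near-identical copies, such as globin, trypsin and crystallin genes, may share reads and are uncertain one by one.

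Levels, shares of summed FPKM, SDs of log2(FPKM + 1) and correlations were computed in Python 3.11.15 with NumPy 2.4.6, pandas 2.3.3 and SciPy 1.17.1, and drawn with Matplotlib 3.10.9; the spread step was tested on simulated data. A gene counted as present at 1 FPKM in all 4 libraries, and spread was described at a median FPKM of at least 10. The 41 gene lists, 13 of them for other cell types, and the libraries themselves were chosen with earlier results of these data known. Named genes are the 40 with the highest mean, up to 10 of each list by median FPKM (6 for other cells), every SoxE, SoxD, fibrillar collagen, hypertrophy and mitochondrial genome gene, the 4 markers, and 10 each of largest spread, smallest spread and largest excess of 1 library; some are left out for length, and 1 is not reported here. Alternatives covered thresholds, pseudocounts, scaling and each library left out.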

Additional observations from a re-analysis of the deposited data

Results flagged for a closer look

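A gene's 4 WT values were marked where the gap between the highest or lowest library and its nearest neighbour, divided by the whole range, passed Dixon's 95% critical value for 4 samples. For independent, normally distributed values chance alone marks about 1 group in 20. Here FPKM were not log-transformed and all genes share the same 4 libraries, so the count below cannot be judged against that rate. Of the 2949 genes whose median reached 10 FPKM, 468 (15.9%) passed, 348 with WT replicate 1 highest and 61 with it lowest. Of the 228 genes named here 55 passed, but many were named because 1 library stood apart, so that count describes the choice.

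In FPKM as deposited, replicate 1 was the high library for 36 named genes. The marks were not repeated after median-ratio scaling, which lowers replicate 1 relative to the other libraries. With values divided by those scaling factors, itgb1a, sdc4 and tgfbr2b were no longer highest in replicate 1, so their place in this group depends on the scaling. Among matrix and adhesion genes it stood at 4037 FPKM for col8a2, 2389 for acana, 1378 for fn1b, 903 for f13a1b, 741 for sdc4, 581 for loxl4, 422 for emilin3a, 409 for cspg4, 223 for cyr61 and 120.05 for adamts3. Among receptors and surface proteins it stood at 249 FPKM for adgrg6, 162 for itgb1a, 161 for rarga, 131 for itga9, 119 for boc, 95.6 for rargb, 72.03 for lpar1, 67.7 for itga5, 32.7 for tgfbr2b and 10.6 for igf1ra. Among regulators and signals it stood at 254 FPKM for foxc1a, 253 for foxc1b, 199.9 for sema3d, 96.5 for sall4, 89.2 for hand2 and 69.02 for trps1. Among genes of cartilage enlargement and bone it stood at 1.42 FPKM for phex and 0.578 for mmp13b, both listed at 0 in replicates 3 and 4. Cytoskeletal and other genes had 1516 FPKM for actb2, 1470.4 for krt8, 1116 for krt18a.1, 449 for tubb4b, 228 for anxa1a, 121 for lmna, 116 for cav1 and 50.8 for slc2a1b.

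Replicate 1 was the low library for 13 named genes, also in FPKM as deposited. The matrix genes were matn1 with 7687 FPKM there, epyc with 709.7, sparc with 632, matn4 with 598, loxl3b with 185, tgfbi with 159.7 and col9a1b with 3.27. The collagen hydroxylase genes p4hb and plod1a had 140.01 and 65.5 FPKM, the Wnt antagonist gene frzb had 95.7, and the energy genes atp5f1b, ldhba and ldha had 173, 77.3 and 32.3 FPKM.

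Other libraries stood apart for 6 named genes. Replicate 2 was high for serpinh1b, with 363 FPKM. Replicate 4 was high for pvalb1 with 327 FPKM, krtt1c19e with 178, fgfr4 with 60.2, hbae3 with 25.6 and, for 1 of 2 gene IDs, arf2b with 51.8 FPKM. What sets these libraries apart was not tested.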

How the results depend on the processing

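No paired analysis was possible because 1 group is described and there is no contrast to block. The 7788 genes at 1 FPKM or more in all 4 WT libraries became 3841 at a threshold of 5 FPKM, and were 7858 to 9232 at 0.5 FPKM, on a scale summing to 1000000 with a threshold of 3, or in at least 3 libraries. Leaving out each library in turn gave 7978 to 8190 genes and 1039 to 1052 genes of the lists, against 1024. The share of the 10 highest genes was 21.6 to 27.3% and the matrix share 27.8 to 33.2% with a library left out, and the matrix share was 21.4% with col2a1a and matn1 left out. The median SD of log2(FPKM + 1) was 0.187 without replicate 1 and 0.349 to 0.383 without another library, and it stayed between 0.336 and 0.411 under the other alternatives. The median Pearson correlation of 0.900 became 0.828 with a pseudocount of 0.1 and 0.844 as Spearman's, and 0.866 to 0.918 with a library left out. Of 198 named genes with no listed 0, leaving out replicate 1 moved the mean by over 1.5 times for 25, led by hand2, itga9 and col8a2, leaving out replicate 4 did so for 7, led by krtt1c19e, and leaving out replicate 2 or 3 for 0. Rescaling to equal sums or by median ratios moved 0 of the 198 means by as much as 1 SD between libraries. Leaving out replicate 1 also moved 0 by that measure, so it is too loose to show whether levels depend on scaling. As deposited, replicate 1 was above the mean of the others for 1882 of 2949 genes, and after median-ratio scaling it was below for 1783. Of 41 list counts, 19 moved by over 1.5 times at 5 FPKM and 1 when 3 libraries sufficed. The cause of these shifts was not tested. Depth is unknown, so a low value or a listed 0 has no detection limit here.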

Other observations

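The cytoskeletal genes, outside the matrix, regulatory, metabolic and receptor groups, held 33 of 43 genes at 1 FPKM or more in all 4 WT libraries. The keratin genes krt8 and krt18a.1, which notochord and simple epithelia also use, had 1470.4, 315, 277 and 241 FPKM for krt8 and 1116, 251, 209 and 198 FPKM for krt18a.1 in replicates 1 to 4, and the actin gene actb2 had 1516, 728, 754 and 819 FPKM. All 3 were highest in replicate 1. The tubulin gene tubb4b had 449, 177, 199.6 and 175 FPKM, highest in replicate 1, and the actin-severing gene cfl1 had 222, 193, 194 and 244 FPKM, with no library apart.

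Among translation genes beyond the elongation factors of the highest 40, eif5a had 339, 422, 494 and 529 FPKM, lowest in replicate 1, and eif1b had 684, 311, 334 and 394 FPKM, highest there. Of the proteasome and RNA polymerase subunit genes, polr2a had 61.5, 45.9, 40.4 and 52.4 FPKM and psmb1 had 33.7, 28.5, 26.9 and 30.6 FPKM. By mean they ranked 763 and 1210 of 32057 genes. On that list 41 of 46 genes reached 1 FPKM in all 4 libraries, 21 reached 10 and 0 reached 100. Over all genes, 7788 reached 1 FPKM in all 4 libraries.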
